A study of Homo sapiens with 6 samples.

Results

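The ISG15 conjugation pathway was represented by 6 genes taken by name from the 16306 genes of the deposited gene table, ISG15, UBA7, UBE2L6, HERC5, HERC6 and USP18. All 6 passed the filter on low counts and were among the 12620 genes tested. RNA was sequenced from 6 libraries of PC9, a human lung adenocarcinoma cell line that carries an activating EGFR deletion. A negative control shRNA was used in 3 of them (sh-NC replicates 1, 2 and 3) and an shRNA against the splicing regulator RBM10 in the other 3 (shRBM10). All cells of both groups were PC9, no drug or time point was given, and neither the labels nor the study's methods name which RBM10 shRNA was sequenced. The shRBM10 libraries are called A, B and C, after the last letter of their columns, since of them only A (replicate 1) could be matched to a sample title. The columns of sh-NC replicates 1, 2 and 3 end in the same letters. The labels call the libraries of a group replicate biosamples and the study's methods speak of independently repeated experiments, but neither states that these libraries came from separate cultures, so the p-values measure the spread between these libraries, which may be technical.

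ISG15 is a small ubiquitin-like protein whose gene is switched on by interferon. It is attached to other proteins by a short enzyme cascade. UBA7 is the activating enzyme (E1), UBE2L6 the conjugating enzyme (E2) and HERC5 the main ligase (E3) in human cells, where it acts on newly made proteins at ribosomes. HERC6 is the closest paralog of HERC5 and is the main ISG15 ligase in mice. USP18 is the protease that takes ISG15 off again, and it also binds the interferon receptor subunit IFNAR2 and dampens signaling there. In human cells free ISG15 protects USP18 from degradation.

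On GRCh38.p14 ISG15 lies on chromosome 1 (1013497 to 1014540, plus strand), UBA7 on chromosome 3 (49805209 to 49813953, minus strand) and UBE2L6 on chromosome 11 (57551662 to 57567935, minus strand). HERC6 (88378852 to 88443097) and HERC5 (88457119 to 88506163) are neighbours on the plus strand of chromosome 4, 14022 bases apart. USP18 lies on chromosome 22 (18150170 to 18177397, plus strand). The interferon-stimulated response element is a sequence found in the promoters of many interferon-stimulated genes, and its core was searched as GAAANNGAAA on both strands in the 250 bases before each RefSeq gene start. Windows were at hand for 4 of the 6 genes, and those of ISG15, HERC5 and HERC6 are shown because the first pair hold the motif and the last, the neighbour of HERC5, does not. The sequences are from RefSeq (GRCh38.p14), run 5′ to 3′ on the plus strand up to the base before the gene start, and have each match of the motif in capitals.
ISG15, chr1:1013247-1013496: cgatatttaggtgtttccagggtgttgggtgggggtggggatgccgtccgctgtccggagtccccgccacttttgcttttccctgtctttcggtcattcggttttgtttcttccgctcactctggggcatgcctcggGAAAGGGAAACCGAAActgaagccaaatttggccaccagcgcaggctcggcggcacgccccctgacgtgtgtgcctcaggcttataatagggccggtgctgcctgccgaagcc
HERC5, chr4:88456869-88457118: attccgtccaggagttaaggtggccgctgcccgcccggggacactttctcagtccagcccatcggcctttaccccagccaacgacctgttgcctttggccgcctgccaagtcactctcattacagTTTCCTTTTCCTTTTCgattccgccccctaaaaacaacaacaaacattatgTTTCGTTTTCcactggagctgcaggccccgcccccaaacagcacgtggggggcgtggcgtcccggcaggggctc
HERC6, chr4:88378602-88378851: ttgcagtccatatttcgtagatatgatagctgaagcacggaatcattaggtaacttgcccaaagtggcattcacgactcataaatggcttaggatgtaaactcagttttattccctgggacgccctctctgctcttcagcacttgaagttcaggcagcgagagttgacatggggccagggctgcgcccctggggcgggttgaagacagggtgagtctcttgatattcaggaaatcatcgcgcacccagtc
The ISG15 window held 2 overlapping matches on the plus strand, the first from 113 to 104 bases before the start. The HERC5 window held 3 matches, all read on the opposite strand as TTTCNNTTTC, of which 2 overlapped and the one nearest the start lay 74 to 65 bases before it. The windows of HERC6 and UBE2L6 held 0 matches, which says only that these letters were not in these windows. Of all 35116 RefSeq windows of this length 3.02% held the motif, and of the 15110 windows of genes tested here 2.36%. Among 29 windows of other interferon-stimulated genes 18 held it (62.1%).

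Total counts lay between 16606401 and 18864241 per library. sh-NC replicate 2 stood apart from the other libraries, with a TMM factor of 0.738 against 1.03 to 1.08 in the rest. Over genes, the chi-square per degree of freedom was 2.93 between sh-NC replicates 1 and 3 and at least 29.7 between any other pair of libraries, so all differed beyond counting error. The targeted gene RBM10 had 1431, 1183 and 1469 normalized counts in the sh-NC replicates and 537, 515 and 672 in the shRBM10 libraries, with a log2 fold change of -1.24 (SE 0.23, edgeR adjusted p = 0.10, DESeq2 adjusted p = 0.00157). Gene levels followed GC content in some libraries. The 25% of genes with the lowest GC content (up to 43.8%) had a mean log2 level, relative to the mean of all libraries, of 0.74 in shRBM10 A, 0.48 in B and -0.21 in C, and of -0.18, -0.62 and -0.21 in the sh-NC libraries. The epithelial keratin genes KRT8, KRT18 and KRT19 were abundant and the 10 epithelial and lung markers summed to between 19819 and 45882 CPM, but the lung lineage genes NKX2-1 and SFTPB were at or near 0 in every library. The labels' extraction protocol mentions retinas. Of 7 retina markers PDE6A, OPN1SW and CRX summed to between 0.444 and 0.688 CPM in sh-NC and 1.04 and 2.01 in shRBM10, with no overlap, and the other 4 were not analysed here. PDE6A, the one of them that passed the filter, had a log2 fold change of 1.30 (SE 0.42, edgeR adjusted p = 0.156), and the part of these genes in other results was not tested.

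All 6 pathway genes had positive log2 fold changes in shRBM10 against sh-NC, with a median of 0.61 against 0.03 over all genes tested, but their sizes differed widely. HERC5 and HERC6 were the farthest apart between the groups, UBA7 was moderately higher in shRBM10, and ISG15, UBE2L6 and USP18 overlapped between the groups. In bulk RNA, more cells with a transcript and more of it per cell cannot be told apart. A gene was called where edgeR's quasi-likelihood test gave an adjusted p under 0.05 and its log2 fold change exceeded 1 in size, and 0 of the 6 were called (0.0158% of those tested). By unadjusted p, under 0.05, and that fold limit, 2 of the 6 were higher in shRBM10, where 10.1% of all genes were, and with no fold limit 3 of the 6 were, where 15.7% were. Of all genes, 1272 were higher and 193 lower by the first of these rules, and 290 and 309 once the GC trend of each library had been removed. The groups of 3 of the 6 genes did not overlap, with shRBM10 higher, and 13.8% of all genes shared that pattern. DESeq2, a second count model, called 2 of the 6 (3.64% of genes with an adjusted p were called higher), and limma-voom called 0.

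**Figure D1:**
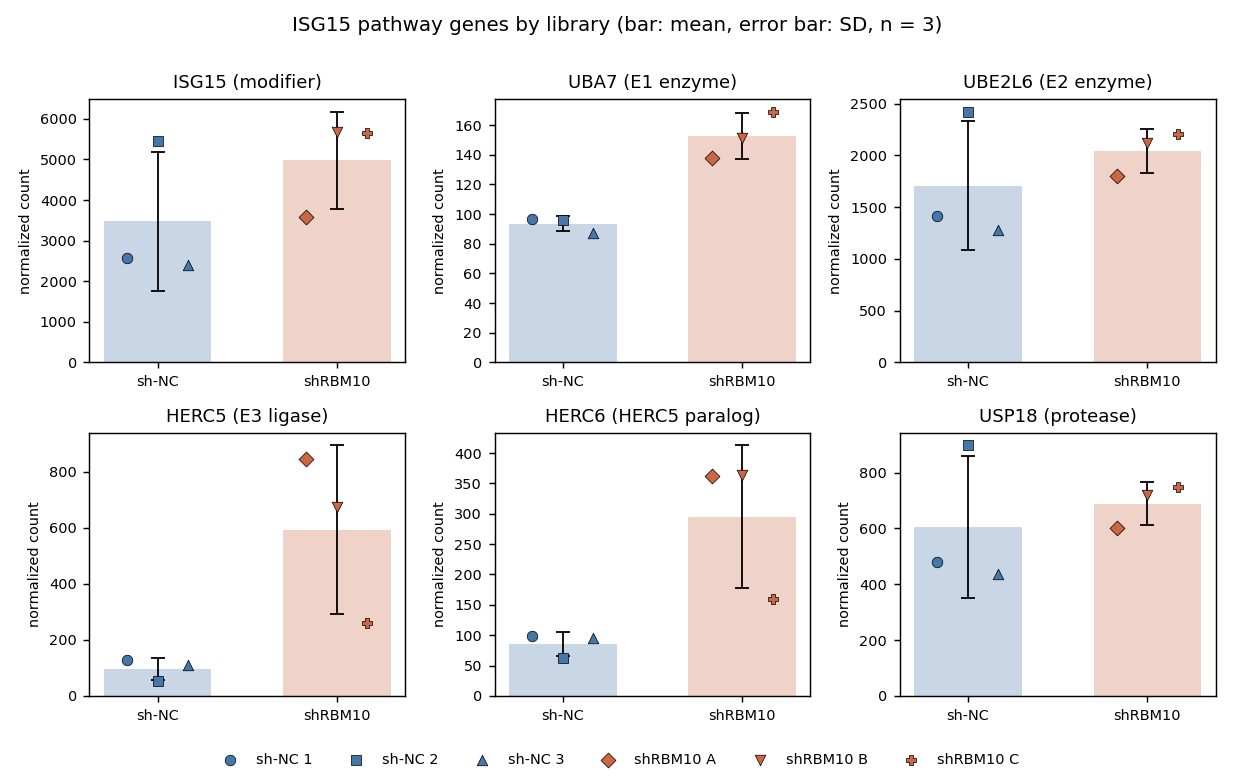
Normalized counts (TMM-scaled, vertical axis from 0, one panel for each gene) of the 6 ISG15 pathway genes in sh-NC (blue) and shRBM10 (orange), with points for libraries, bars for means and error bars for SD (n = 3 for each group). HERC5, HERC6 and UBA7 have no overlap between the groups, while sh-NC replicate 2 lies within or above the shRBM10 values for ISG15, UBE2L6 and USP18.

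ISG15, the modifier itself, was the most abundant of the 6. In sh-NC its normalized counts were 2580, 5449 and 2391 (replicates 1, 2 and 3), and in shRBM10 they were 3593, 5681 and 5657 (libraries A, B and C), the order kept for all genes here. sh-NC replicate 2 was close to libraries B and C and above A, so the groups overlapped. The log2 fold change was 0.52 (1.43-fold, SE 0.35, edgeR p = 0.171, adjusted p = 0.352), which was within the spread between the libraries (two-sided exact permutation test, p = 0.2, where 3 against 3 allow 0.1 at the lowest). Without sh-NC replicate 2 it was 0.92 (SE 0.24, edgeR adjusted p = 0.121).

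UBA7, the enzyme that activates ISG15, was scarce and even within the groups. Its normalized counts were 97.0, 95.9 and 87.5 in sh-NC and 138, 151 and 169 in shRBM10. All 3 shRBM10 libraries lay above all 3 of sh-NC. The log2 fold change was 0.71 (1.63-fold, SE 0.27, edgeR p = 0.0258, adjusted p = 0.175, exact permutation p = 0.1). For UBA7 sh-NC replicate 2 lay between the other sh-NC replicates, and the value with the GC trend removed was 0.94 (SE 0.17, edgeR adjusted p = 0.103).

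UBE2L6, the conjugating enzyme that takes ISG15 over from UBA7, had normalized counts of 1414, 2421 and 1281 in sh-NC, against 1801, 2117 and 2208 in shRBM10. The highest of all 6 values was that of sh-NC replicate 2. UBE2L6 had a log2 fold change of 0.26 (1.20-fold, SE 0.28, edgeR p = 0.370, adjusted p = 0.550, exact permutation p = 0.4), and it was 0.52 (SE 0.18, unadjusted edgeR p = 0.020, adjusted p = 0.164) without that library.

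HERC5, the ligase, showed the largest difference of the 6. Its normalized counts were 127, 52.0 and 109 in sh-NC and 845, 674 and 258 in shRBM10. Every shRBM10 library was above every sh-NC library, with C well below A and B, and sh-NC replicate 2 was the lowest of sh-NC. The log2 fold change was 2.61 (6.12-fold, SE 0.49), the p ranked 41 among all genes tested (edgeR p = 0.000338, adjusted p = 0.10, exact permutation p = 0.1), and DESeq2 gave an adjusted p of 9.8e-06. HERC5 is also the gene of the pathway with the lowest GC content, 39.0% as the median over its annotated transcripts and 44.1% in the transcript that carried most of its counts. Removing the GC trend gave a log2 fold change of 1.83 with the first GC value (SE 0.29, edgeR adjusted p = 0.0929) and 2.09 with that of the longest transcript (SE 0.38, edgeR adjusted p = 0.103).

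HERC6, the neighbour and paralog of HERC5, was also higher in shRBM10, with a smaller difference and with libraries A and B nearly equal. Its normalized counts were 98.9, 63.0 and 94.8 in sh-NC, against 362, 364 and 159 in shRBM10. The groups did not overlap, and again C was the lowest shRBM10 library and replicate 2 the lowest sh-NC library. HERC6 had a log2 fold change of 1.78 (3.44-fold, SE 0.38, edgeR p = 0.000993, adjusted p = 0.128, exact permutation p = 0.1), the DESeq2 adjusted p was 0.00164, and with the GC trend removed the log2 fold change was 1.39 (SE 0.28, unadjusted edgeR p = 0.00144, adjusted p = 0.125). The part of GC content in either HERC result was not tested beyond this correction. Both genes overlap a long noncoding RNA gene, LOC102723458 (chromosome 4, 88411483 to 88467706), and whether reads were counted by strand is not given in the sources used here, so its reads cannot be told apart from theirs.

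USP18, the protease, had the smallest difference. Its normalized counts were 480, 898 and 437 in sh-NC and 601, 719 and 747 in shRBM10. As for ISG15 and UBE2L6, sh-NC replicate 2 was far above the other sh-NC replicates, and here it was the highest library. USP18 had a log2 fold change of 0.19 (1.14-fold, SE 0.31, edgeR p = 0.553, adjusted p = 0.701, exact permutation p = 0.4). It was 0.51 (SE 0.20, edgeR adjusted p = 0.183) without sh-NC replicate 2 and -0.0011 without sh-NC replicate 3. USP18 has a near-identical copy, USP41, on the same chromosome, so its count is uncertain where reads match both.

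Single libraries differed in which of the 6 genes they held high. Relative to the sh-NC mean, sh-NC replicate 2 was at log2 values of 0.76, 0.56 and 0.65 for ISG15, UBE2L6 and USP18 but at -0.78 and -0.41 for HERC5 and HERC6. Among the shRBM10 libraries, C was the highest for UBA7, UBE2L6 and USP18 and the lowest for both HERC genes. With sh-NC replicate 2 left out, an alternative chosen after seeing the data for the overlap count, all 6 genes had an unadjusted edgeR p under 0.05 with shRBM10 higher (11.6% of genes tested), and the groups of all 6 did not overlap (23.4% of genes). That fit leaves sh-NC replicates 1 and 3, by far the closest pair of libraries (chi-square per degree of freedom 2.93, against at least 29.7). Its p-values thus rest on a narrow spread within sh-NC. With the GC trend removed, 4 of the 6 passed an unadjusted p under 0.05 (7.7% of genes), among them ISG15, at a log2 fold change of 0.84 (SE 0.32, edgeR adjusted p = 0.249).

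**Figure D2:**
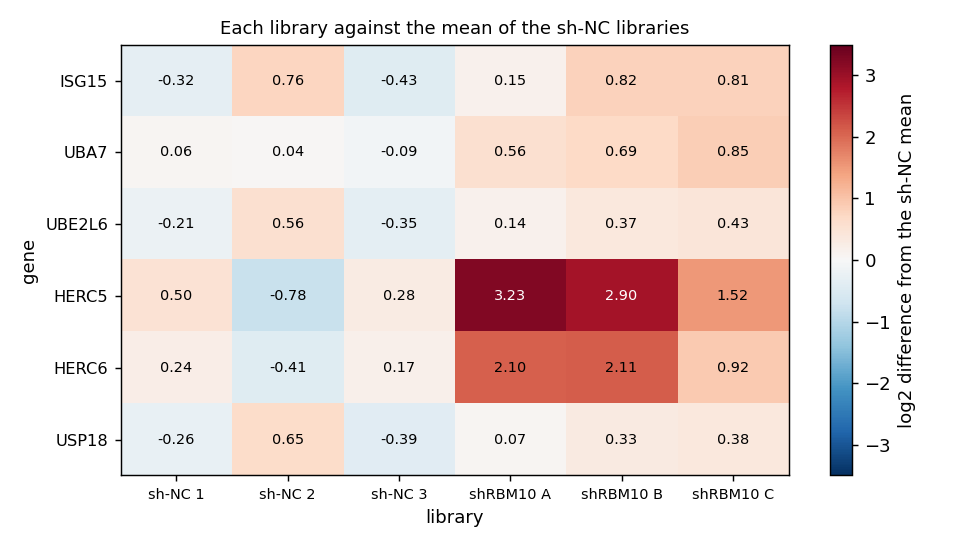
Log2 normalized count of each ISG15 pathway gene (rows) in each library (columns) minus the mean of its sh-NC log2 values, with colour for size and sign. HERC5 reaches 3.23 and 2.90 in shRBM10 A and B but 1.52 in C, whereas UBA7 is between 0.56 and 0.85 in all shRBM10 libraries, and sh-NC replicate 2 is positive for ISG15, UBE2L6 and USP18 and negative for HERC5 and HERC6.

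**Figure D3:**
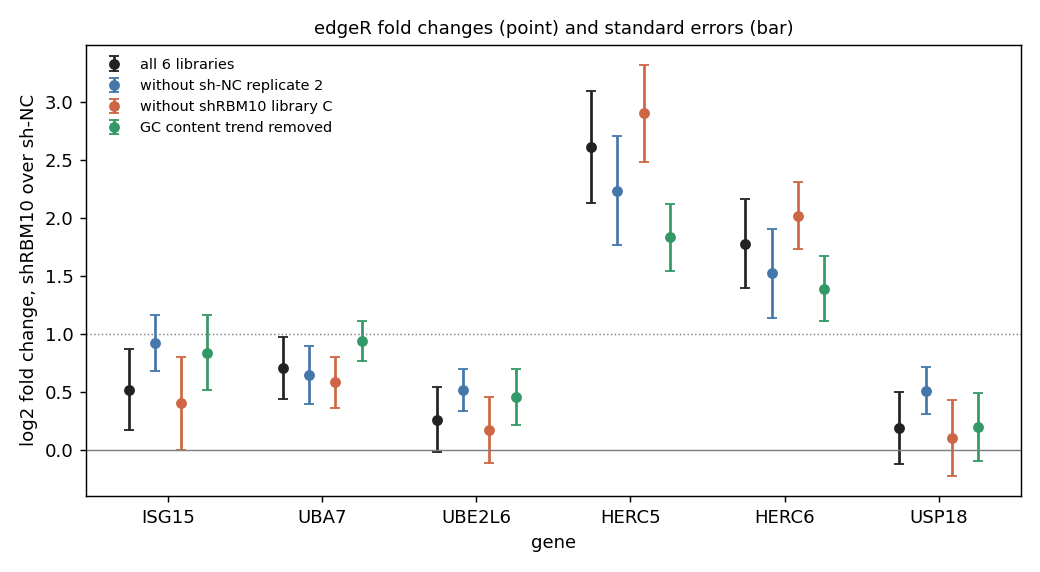
Log2 fold change of shRBM10 over sh-NC (points) with the standard error (bars) from edgeR for each gene, with all libraries, without sh-NC replicate 2, without shRBM10 library C and with the GC trend removed. Every point is above 0, the points of HERC5 and HERC6 stay above 1 (dotted line), and those of ISG15 range from 0.40 to 0.92.

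UBE2L6 and USP18 were the closest pair by library. The root mean square difference between their log2 profiles over the 6 libraries was 0.058, and each was the fifth nearest of 12619 genes to the other. HERC6 ranked 74 among the genes nearest to HERC5, at 0.64, and HERC5 ranked 1441 among those nearest to HERC6. The distance between HERC5 and USP18 was 1.87, the largest of the 15 pairs. The genes outside the pathway whose profile was nearest to the mean of the 6, among 11059 genes with a mean normalized count of at least 50, were C4orf33, BLNK, RSPH1, RAB29 and FAM210B. Their root mean square differences were 0.102 to 0.137 over 6 libraries, and their log2 fold changes 0.89 to 1.01. These likenesses are descriptions over 6 libraries that share sh-NC replicate 2 and the GC trend.

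Levels of different genes were compared as CPM (counts scaled to a common TMM-adjusted library total) per kilobase of the RefSeq transcript with the most counts. In sh-NC the order of mean levels was ISG15 (297 ± 146, SD, n = 3), UBE2L6 (68.5 ± 25.1), USP18 (15.5 ± 6.52), UBA7 (1.54 ± 0.085), HERC5 (1.49 ± 0.61) and HERC6 (1.23 ± 0.28). The levels of ISG15, UBE2L6 and USP18 did not overlap with each other or with the rest, while HERC5 overlapped with both UBA7 and HERC6. The modifier was thus far more abundant than its activating enzyme and its ligase at the RNA level. In shRBM10 the order was ISG15 (425 ± 102), UBE2L6 (82.1 ± 8.60), USP18 (17.6 ± 1.99), HERC5 (9.18 ± 4.67), HERC6 (4.25 ± 1.69) and UBA7 (2.52 ± 0.26). HERC5 was above HERC6 in all 3 shRBM10 libraries, at 13.1, 10.4 and 4.0 against 5.22, 5.24 and 2.3, and UBA7, at 2.27 to 2.79, overlapped with HERC6.

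**Figure D4:**
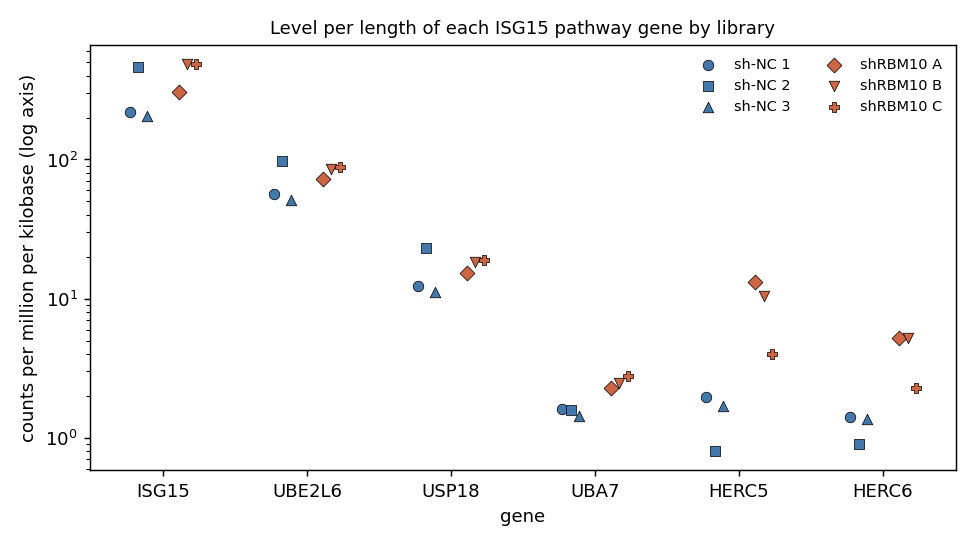
CPM per kilobase (log axis) of the 6 ISG15 pathway genes by library, ordered by their mean in sh-NC, with sh-NC in blue and shRBM10 in orange. ISG15, at 204 to 485, is above every other gene in every library, and HERC5 lies among the 3 scarcest genes in sh-NC and above UBA7 and HERC6 in every shRBM10 library.

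The transcript table showed which RefSeq transcript carried the counts. ISG15 and UBA7 each had 1 transcript with counts, and UBE2L6 was carried by NM_004223 at 97.0% to 99.4% of its counts. HERC5 was carried by NM_016323, at 84.2% of 38 counts in sh-NC replicate 2 (95% Wilson interval 69.6% to 92.6%, counting error only) and above 99% in the other libraries. The log2 fold change of NM_016323 was 2.69 (SE 0.60, edgeR adjusted p = 0.376). USP18 was divided between NM_017414, at 81.0% to 85.1%, and XM_006724074, at 14.9% to 18.96%, and their log2 fold changes were 0.25 (SE 0.30) and 0.28 (SE 0.37). By edgeR's test 0 of 38286 transcripts of the whole table were called at the adjusted p and fold limit, and 3.71% were higher at an unadjusted p under 0.05 with that limit.

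HERC6 was the exception in its transcripts. NM_017912 held 86.0% to 98.1% of the HERC6 counts in 5 libraries but 50% of 166 in shRBM10 C (95% Wilson interval 42.5% to 57.5%). There XM_017008333 held 41.6% (34.3% to 49.2%). The estimated count of XM_017008333 was 12.7, 3.72 and 0 in sh-NC and 0, 0 and 68.7 in shRBM10, so it was high in 1 library. The normalized counts of NM_017912, at 87.7, 53.8 and 81.3 in sh-NC and 333, 364 and 80.0 in shRBM10, overlapped between the groups although those of the gene did not. The log2 fold change of NM_017912 was 1.80 (SE 0.59, edgeR adjusted p = 0.485). Transcript counts are estimates of how shared reads divide, and the intervals do not cover that error.

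Other enzymes known to attach or remove ISG15 did not share one direction. Of 8 ligases and proteases, 3 had positive and 5 negative log2 fold changes, with a median of -0.17, and 2 were higher at an unadjusted edgeR p under 0.05 (15.7% of all genes). USP16, reported to remove ISG15 as well as ubiquitin, had normalized counts of 186, 152 and 222 in sh-NC and 498, 436 and 255 in shRBM10 and a log2 fold change of 1.08 (SE 0.32, edgeR adjusted p = 0.153, DESeq2 adjusted p = 0.0441). ARIH1, a ligase also known as HHARI, had a log2 fold change of 1.02 (SE 0.45, edgeR adjusted p = 0.2), with overlapping groups. TRIM25, a ligase and itself a target of ISG15, had normalized counts of 3462, 2543 and 3508 in sh-NC and 2214, 1917 and 2516 in shRBM10, all lower, and a log2 fold change of -0.52 (SE 0.23, edgeR adjusted p = 0.207). The ubiquitin proteases USP2, USP5, USP13, USP14 and USP21 lay between -0.43 and 0.51 with overlapping groups. With the GC trend removed, 0 of the 8 were higher (7.7% of all genes) and 2 lower (11%) at that p, and without sh-NC replicate 2, 1 was higher (11.6%) and 1 lower (12.7%).

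Of the proteins through which USP18 and ISG15 meet interferon signaling 8 were tested. Of these, 3 were higher and 0 lower at an unadjusted edgeR p under 0.05 (15.7% of all genes higher, 8.6% lower). The median log2 fold change was 0.24, and DESeq2 called 0 (3.64% of all genes higher). The groups of 4 of the 8 did not overlap, with shRBM10 higher (13.8% of all genes). At that p, 3 were higher with the GC trend removed (7.7% of all genes) and 1 with that of the longest transcript (7.81%). Without sh-NC replicate 2, 3 were (11.6%). With the fold limit as well, 1 passed with all libraries (10.1% of all genes) and 0 in each of these settings (2.14% to 4.81%). STAT2, which holds USP18 at the receptor, was at 642, 567 and 638 in sh-NC and 1041, 868 and 1144 in shRBM10, with a log2 fold change of 0.72 (SE 0.22, edgeR adjusted p = 0.155).
The kinase JAK1 had a log2 fold change of 1.06 (SE 0.38, edgeR adjusted p = 0.169) and the receptor subunit IFNAR1 of 0.95 (SE 0.32, edgeR adjusted p = 0.162), both without overlap between the groups. IFNAR2, the subunit that USP18 binds, was at 0.08 (SE 0.28), IRF9, a partner of STAT2, at 0.11 (SE 0.24) and the kinase TYK2 at -0.30 (SE 0.24). SKP2, which promotes the degradation of USP18, was at 0.37 (SE 0.25) and without overlap. ITGB2, a subunit of the LFA-1 receptor for secreted ISG15, was at -0.27 (SE 0.26), and its partner ITGAL was under the filter, at 0 to 1.92 normalized counts.

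The large HERC proteins HERC1 and HERC2 and the other small ones, HERC3 and HERC4, had log2 fold changes of 1.19 (SE 0.65), 0.57 (SE 0.43), 0.98 (SE 0.38) and 1.01 (SE 0.37). HERC3 and HERC4 had unadjusted edgeR p-values of 0.0278 and 0.0226 (15.7% of all genes were higher with p under 0.05). The groups of all 4 overlapped (13.8% of all genes were higher without overlap). At an unadjusted p under 0.05, 0 of the 4 passed without sh-NC replicate 2 (11.6% of all genes higher) or with the GC trend removed (7.7%). DESeq2 called 0 (3.64% of all genes higher). At such shares 0 of 4 genes says little about this family. HERC5 and HERC6 passed an unadjusted p under 0.05 in both settings.

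Of 24 genes of other ubiquitin-like systems (ubiquitin itself, SUMO, NEDD8, UFM1, URM1 and the ATG proteins of autophagy), 10 had positive and 14 negative log2 fold changes, with a median of -0.07. At an unadjusted edgeR p under 0.05, 5 of 24 were higher (20.8%, against 15.7% of all genes) and 0 lower (8.6% of all genes), and DESeq2 called 3 (3.64% of all genes were called higher). The 3 with the smallest p were NAE1 and UBA3, which together activate NEDD8, at 0.94 (SE 0.28, edgeR adjusted p = 0.153) and 1.13 (SE 0.34, edgeR adjusted p = 0.153), and UFL1, the UFM1 ligase, at 1.38 (SE 0.43, edgeR adjusted p = 0.155). With the GC trend removed 2 of the 24 were higher at that p (8.33%, against 7.7% of all genes).

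Among 15 proteins reported to carry ISG15, 7 had positive and 8 negative log2 fold changes (median -0.06), 6 were higher at an unadjusted edgeR p under 0.05 (15.7% of all genes) and DESeq2 called 3 (3.64% of all genes higher). Without sh-NC replicate 2 the median was 0.27. With the GC trend removed 4 were higher (7.7% of all genes) and 2 lower (11% of all genes) at that p, and the median was -0.17. The 3 with the smallest p are themselves interferon-stimulated. Some genes of this list, IFIT1 among them, are also counted in the list of other interferon-stimulated genes, so these lists are not separate results. IFIT1, which binds foreign RNA ends, had a log2 fold change of 2.13 (SE 0.34, edgeR adjusted p = 0.0894), DDX58, the RNA sensor RIG-I, of 2.41 (SE 0.50, edgeR adjusted p = 0.12), and IFIH1, the RNA sensor MDA5, of 2.3 (SE 0.50, edgeR adjusted p = 0.128).

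Of 22 other interferon-stimulated genes all 22 had positive log2 fold changes, with a median of 1.54. At an unadjusted edgeR p under 0.05, 20 were higher (15.7% of all genes), with the fold limit 14 (10.1%), and 18 did not overlap between the groups (13.8%). DESeq2 called 14 (3.64% of all genes higher). The 3 with the smallest p were IFI44, at 2.02 (SE 0.27, edgeR adjusted p = 0.0861), the RNA-activated synthetase OAS2, at 1.41 (SE 0.20, edgeR adjusted p = 0.0861), and IFIT1. ISG15, UBA7, UBE2L6 and USP18 lay under that median, while the genes of the list themselves reached down to 0.23. The difference of these pathway genes from the other interferon-stimulated genes was not tested. With the GC trend removed the median of the list was 1.17, 21 of 22 were positive and 19 had an unadjusted p under 0.05 (7.7% of all genes higher).
Of the interferon genes themselves, IFNB1, IFNL1, IFNL2 and IFNL3 passed the filter, and IFNL3, IFNL2 and IFNB1 had the smallest p, with log2 fold changes of 0.66 (SE 0.30, edgeR adjusted p = 0.208), 0.63 (SE 0.29, edgeR adjusted p = 0.216) and 0.47 (SE 0.38, edgeR adjusted p = 0.431). All 4 log2 fold changes were positive, with a median of 0.55, and the groups of 2 of the 4 did not overlap, with shRBM10 higher (13.8% of all genes). At an unadjusted p under 0.05 0 of these 4 were higher (15.7% of all genes), and DESeq2 called 0 (3.64% of all genes higher). At that p 2 were higher without sh-NC replicate 2 (11.6% of all genes) and 2 with the GC trend removed (7.7%). Leukocyte genes were low apart from CD68, with PTPRC and LYZ at 0 to 8.22 normalized counts, and the summed level of the 4 leukocyte markers analysed was 103 to 184 CPM in sh-NC and 99.6 to 129 in shRBM10. Of 4 fibroblast and endothelial markers tested, 2 were lower in shRBM10 at an unadjusted p under 0.05 (8.6% of all genes), CDH5 at -1.38 (SE 0.35, edgeR adjusted p = 0.144) and VWF at -1.31 (SE 0.40, edgeR adjusted p = 0.155). COL1A1, at 0.77 (SE 0.41, edgeR adjusted p = 0.256), and PDGFRB, at -0.37 (SE 0.45), overlapped between the groups.

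**Figure D5:**
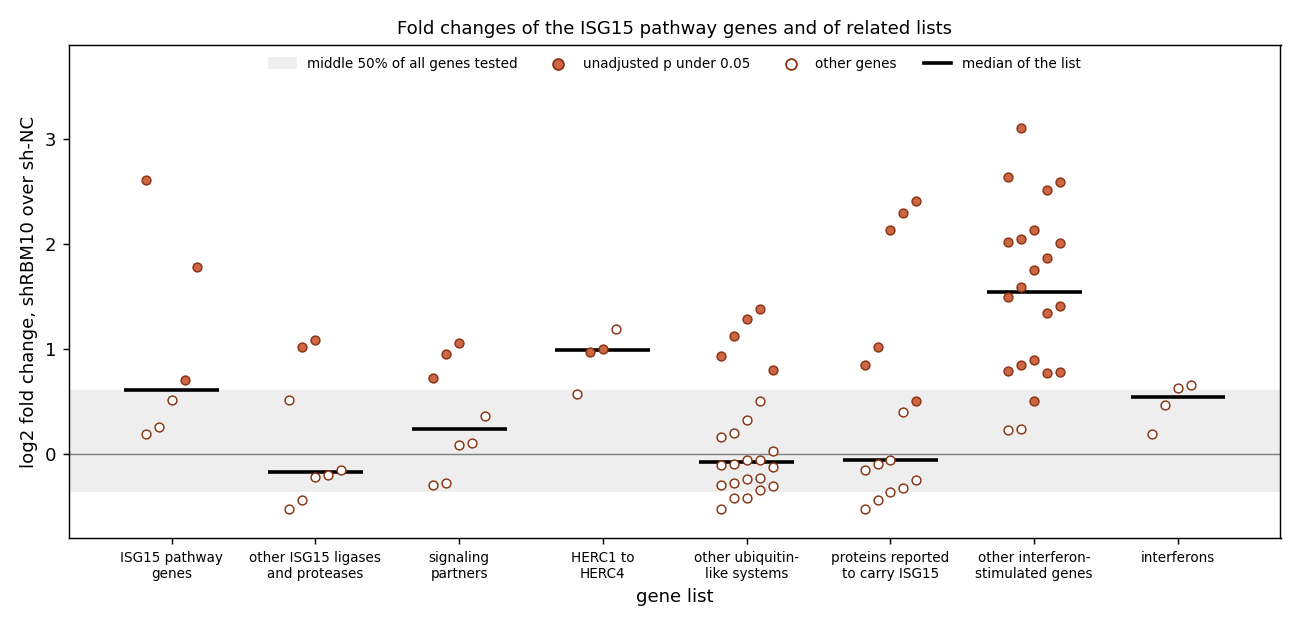
Log2 fold changes of shRBM10 over sh-NC (vertical axis) for the 6 ISG15 pathway genes and 7 related gene lists (horizontal axis), with filled points for an unadjusted edgeR p under 0.05, black lines for list medians and a grey band for the interquartile range of all genes tested. The median is 0.61 for the pathway genes, 1.54 for the other interferon-stimulated genes and -0.07 for the other ubiquitin-like systems.

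The nearest genes tested on either side were taken to describe the loci, and whether whole stretches of a chromosome differed was not tested. Of all 12620 genes tested, 2046 were lower and 1747 higher in shRBM10 without overlap of the groups. Beside ISG15, HES4 (13400 bases away) had a log2 fold change of -0.63 (SE 0.28, edgeR adjusted p = 0.202), lower without overlap. AGRN (5580 bases) was at -0.02 (SE 0.34). Beside UBA7, TRAIP (14648 bases) was at -1.22 (SE 0.35, edgeR adjusted p = 0.153) and IP6K1 (18667 bases) at -0.46 (SE 0.24), both lower without overlap, while UBA7 was higher. Beside UBE2L6, TIMM10 (20908 bases) was at -0.92 (SE 0.34, edgeR adjusted p = 0.172), lower without overlap, and CLP1 (89827 bases) at 0.24 (SE 0.25).
HERC6 and HERC5 were each other's nearest tested neighbours. Beyond HERC6, PPM1K (94291 bases) was at 1.30 (SE 0.40, edgeR adjusted p = 0.154) with no overlap between the groups, and beyond HERC5, PYURF (14835 bases) was at -0.42 (SE 0.30). Beside USP18, TUBA8 (18438 bases) was at 0.35 (SE 0.36), higher without overlap, and TMEM191B (350405 bases) at -0.49 (SE 0.34).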

How the data were processed

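RNA-seq of PC9 cells was compared between 3 sh-NC and 3 shRBM10 libraries. For genes and for RefSeq transcripts the authors deposited estimated counts beside FPKM, TPM and normalized values, and only the deposited estimated counts were used, rounded to whole numbers (87.5% of gene values and 41.1% of transcript values were already whole). In each of them 18 columns of the other measures and 8 columns of group means were not used. The submitters' processing notes name hg38. The aligner, the counting tool and the annotation are not given in the sources used here. Of the shRBM10 columns, 1 matched a sample title and 2 only the group.

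After filterByExpr and TMM scaling, edgeR 4.0.16 (R 4.3.3) was fitted over the whole table (glmQLFit, glmQLFTest) with Benjamini-Hochberg adjustment. Normalized counts are counts divided by the TMM-scaled library size and multiplied by the mean of these sizes. The log2 fold changes are edgeR's, and the standard error is their size divided by the square root of F. DESeq2 1.42.0, limma-voom (3.58.1), other normalizations and filters, GC content and length trends (loess, span 0.3, GENCODE release 29, 99.5% of genes matched) and each library left out were alternatives, and the fits were tested on simulated data. The GC trend by longest transcript, a block by column letter, and list values without sh-NC replicate 2 or without the GC trend, were added after seeing the data. The pathway genes and lists were chosen with earlier results of these data known. Some genes of these lists are not reported here, and the lists' counts and medians are without them. All pathway genes, their partners, the other ligases, proteases and HERC genes and the neighbours were named, and of each other list the 3 genes with the smallest p, beside the cell type markers, which were chosen after their values were seen. Depth limits UBA7, HERC5 and HERC6 most, with 38 to 140 counts in sh-NC.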

Additional observations from a re-analysis of the deposited data

How the results depend on the processing

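Of 234 recomputed values, 219 kept their direction and their side of the limits, or for a count stayed within 1.5 times. DESeq2 gave log2 fold changes of 2.58 for HERC5, 1.75 for HERC6 and -1.26 for RBM10, all past its limit, and so called 2 of the 6 pathway genes (4.55% of all genes). A filter of at least 1 count over all libraries gave 2.61 for HERC5 (edgeR adjusted p = 0.0487). It called 1 of the 6, and 31 of all 16283 genes tested with that filter (0.19%). Library size alone as the scale, which moved the median of all genes to 0.16, left 5 of the 6 with an unadjusted p under 0.05 (13% of all genes higher). The cause of these differences was not tested. Leaving out single libraries gave log2 fold changes from 0.31 to 0.92 for ISG15, 0.58 to 0.78 for UBA7, 0.089 to 0.52 for UBE2L6, 2.24 to 2.90 for HERC5, 1.52 to 2.02 for HERC6, -0.0011 to 0.51 for USP18 and -1.43 to -1.17 for RBM10. RBM10 was called without sh-NC replicate 2, at -1.42. Of the 6 genes, 0 were called in each of these fits, 2 passed the unadjusted p with the fold limit (3.33% to 13.5% of all genes), and 2 to 6 passed it with no fold limit (5.64% to 20.3%), 6 without sh-NC replicate 2 (11.6%). USP18 turned to -0.0011 without sh-NC replicate 3. The minor UBE2L6 transcript NM_198183 ranged from -1.64 to 0.056, which was its value without shRBM10 library A. Over all genes edgeR called 2, between 0 and 31 under its other settings without a block, and DESeq2 574. The labels pair no libraries, but the columns of both groups end in A, B and C, and these letters were taken as a block in a fit chosen after seeing the data. Libraries of the same letter did not all deviate together from their group means (correlations over genes of 0.38 for A, -0.05 for B and -0.32 for C), so the letters were not taken to pair them. With this block edgeR called 861 genes (6.82%), among them 2 of the 6 pathway genes, HERC5 at 2.54 (edgeR adjusted p = 0.000146) and HERC6 at 1.71 (edgeR adjusted p = 0.0118), and RBM10 at -1.25 (edgeR adjusted p = 0.0112). UBA7, HERC5 and HERC6 had at most 140 counts in each sh-NC library, so depth limits their values most.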

Other observations

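A further look, chosen after the values had been seen, took each pathway gene singly and asked which gene outside the pathway had the nearest profile over the 6 libraries, among genes with a mean normalized count of at least 50. Those nearest to HERC5 were IFIT2, DDX58 and IFIH1, at root mean square log2 differences of 0.102 to 0.27, and all 3 are interferon-stimulated antiviral genes, with DDX58 and IFIH1 encoding the RNA sensors RIG-I and MDA5. Their log2 fold changes were 2.59, 2.41 and 2.3. The nearest to HERC6 were IFI16, a DNA sensor, the ceramidase gene ASAH1 and the secretion regulator RAB27B, at 0.089 to 0.139. ISG15 was nearest to FOLR1, CA11 and the chemokine gene CCL5, at 0.119 to 0.136, UBA7 to SLC22A31, OLFM2 and the adhesion gene ICAM1, at 0.060 to 0.097, UBE2L6 to MAGED2, GSTZ1 and TP53I3, at 0.040 to 0.056, and USP18 to SMIM22, GSTZ1 and MAGED2, at 0.038 to 0.058. These are values over 6 libraries with no test.

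Ratios within a library, also chosen after seeing the values and given with no test, compare members without the scaling between libraries, as counts per kilobase of transcript. The HERC5 level was 3.46%, 0.828% and 3.29% of that of UBE2L6 in sh-NC, against 18.1%, 12.3% and 4.51% for shRBM10. The HERC6 level was 72.4%, 113% and 80.7% of that of HERC5 in sh-NC, against 39.9%, 50.2% and 57.4% for shRBM10. The UBA7 level was 2.82%, 1.63% and 2.81% of that of UBE2L6 in sh-NC, against 3.14%, 2.93% and 3.14% for shRBM10. For these 3 pairs the groups did not overlap, and how many other pairs of genes share that pattern was not counted. The GC trend of each library stays in these ratios, and the GC content of HERC5 was 39.0% against 56.4% for UBE2L6. Its part in the ratios was not tested. The USP18 level was 5.56%, 4.93% and 5.46% of that of ISG15 in sh-NC, against 5.00%, 3.78% and 3.95% for shRBM10, with an overlap. The HERC5 level was 0.892%, 0.173% and 0.828% of that of ISG15 in sh-NC, against 4.26%, 2.15% and 0.828% for shRBM10, so library C lay within sh-NC.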
